A study of Mus musculus with 6 samples.

Results

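A set of 33 genes that mark T cells and natural killer (NK) cells was followed in RNA from femoral bone of mice that ran on a wheel or stayed sedentary. The genes were taken by symbol, and all 33 were found once each among the 55484 genes of the deposited tables. The 6 libraries came from male wild-type C57BL/6 mice, 3 with a normal cage (titled ND/SED) and 3 with free access to a running wheel (ND/WCR), and both groups ate normal chow. The mice entered at 6 weeks of age, were housed singly for 6 weeks and were 12 weeks old at collection. The labels name no transgene or drug. The handling of marrow, muscle and periosteum is not described in the labels used here. In whole tissue, fewer cells of a type and less RNA per cell cannot be told apart.

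T cells recognise antigen through a receptor whose variable chains are held at the surface by the CD3 chains and the zeta chain, which carry the signal inward. The kinases Lck and Zap70 then act on the adaptor Lat. Helper T cells carry the coreceptor CD4, killer T cells carry CD8, and regulatory T cells are set by the transcription factor Foxp3. NK cells lack this antigen receptor, sense target cells through receptors of the killer lectin-like and natural cytotoxicity families, and kill, like killer T cells, with perforin and granzymes. Bone marrow normally holds few mature T and NK cells, among them memory T cells.

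The start regions of the receptor complex and of the killing machinery are shown first because these role groups are compared below. A RefSeq start site on GRCm38.p6 was found for 23 of the 33 genes, with 29 start sites in all, and the 250 bases before each were searched on both strands. Capitals mark AGGAAG, a core bound by ETS factors, and TGTGGT, a core bound by RUNX factors, or the reverse complement of either. Both motifs were spelled without regard to flanking bases and did not overlap in the sequences printed. A match describes letters and is not a bound site.
Cd3d (chr9:44981536-44981785, plus strand): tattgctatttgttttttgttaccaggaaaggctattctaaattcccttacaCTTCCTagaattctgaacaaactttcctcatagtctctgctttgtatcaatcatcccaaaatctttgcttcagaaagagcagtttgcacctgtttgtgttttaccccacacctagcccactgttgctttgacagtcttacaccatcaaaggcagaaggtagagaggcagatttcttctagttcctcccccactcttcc
Cd3e (chr9:45009612-45009861, minus strand): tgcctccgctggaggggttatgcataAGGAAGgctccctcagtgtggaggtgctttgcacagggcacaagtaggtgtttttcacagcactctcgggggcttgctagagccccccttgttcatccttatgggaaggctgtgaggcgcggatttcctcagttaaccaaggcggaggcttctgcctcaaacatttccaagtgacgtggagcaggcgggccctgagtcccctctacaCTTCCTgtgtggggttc
Gzmb (chr14:56262335-56262584, minus strand): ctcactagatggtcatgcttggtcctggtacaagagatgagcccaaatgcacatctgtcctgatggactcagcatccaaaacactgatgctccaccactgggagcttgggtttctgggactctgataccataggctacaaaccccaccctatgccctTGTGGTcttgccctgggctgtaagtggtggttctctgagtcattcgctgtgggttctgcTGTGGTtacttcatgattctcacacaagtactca
Nkg7 (chr7:43436888-43437137, plus strand): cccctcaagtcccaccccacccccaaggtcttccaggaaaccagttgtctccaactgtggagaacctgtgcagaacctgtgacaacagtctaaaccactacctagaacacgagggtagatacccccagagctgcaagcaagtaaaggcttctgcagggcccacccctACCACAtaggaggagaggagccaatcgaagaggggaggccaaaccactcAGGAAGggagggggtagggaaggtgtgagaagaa
The RUNX letters occurred before all 4 cytotoxic granule genes (Gzma, Gzmb, Prf1 and Nkg7) and before none of the 4 receptor complex genes (Cd3e, Cd3d, Cd3g and Cd247), a contrast picked out after the search. Of all 32851 start regions of the same length, 14% held the RUNX letters and 29.5% held the ETS letters. Among the 29 start regions of T and NK genes the shares were 37.9% and 55.2%. Some genes gave several of these regions, and those of Ncr1 overlap. The GATA letters AGATAA stood in 10.3% of the 29 regions, against 9.99% of all. The E-box letters CAGCTG stood in 6.9% of the 29, against 13% of all. The T-box letters AGGTGTGA were found before Nkg7 alone among the 23 genes, against 1.12% of all start regions.

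The deposited tables give every gene a single FPKM for each group, a fragment count scaled to transcript length and library size, pooled over the libraries. An interval of unstated level comes with it. No value of a single mouse, and so no SD, can be given. Log2 folds compare the running with the sedentary value after adding 0.1 FPKM to each, which understates the change of low genes. A gene counts as called where the q of the authors' deposited table is under 0.05. The estimated depth of the libraries was 13800000 to 17400000 fragments. With the longest annotated transcript as length, the 33 genes had about 19 to 1713 fragments per group. The distance from the FPKM to a bound came to a median of 48.9% of the sedentary value and 48.2% of the running value over the 27 tested genes.

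None of the T and NK genes was called between running and sedentary mice in the authors' test, deposited in the layout of Cuffdiff. The authors' test covered 27 of the 33 genes and left out 6 of low expression, Cd28, Icos, Ctla4, Bcl11b, Gata3 and Foxp3. Over all 15508 tested genes the share called was 0.941%. At an unadjusted p under 0.05 in the authors' deposited table, 1 of the 27, Tbx21, passed, beside 5.65% of all tested genes. For every one of the 27 the running and sedentary intervals overlapped, while they lay apart for 0.574% of all tested genes. The median log2 fold of the 33 genes was -0.02, and that of all tested genes was -0.01. Of the 33, 14 had a positive log2 fold. The tested members ran from -0.76 (Tbx21) to 0.53 (Cd3e), and 23 of 27 lay within 0.5 of 0.

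**Figure D1:**
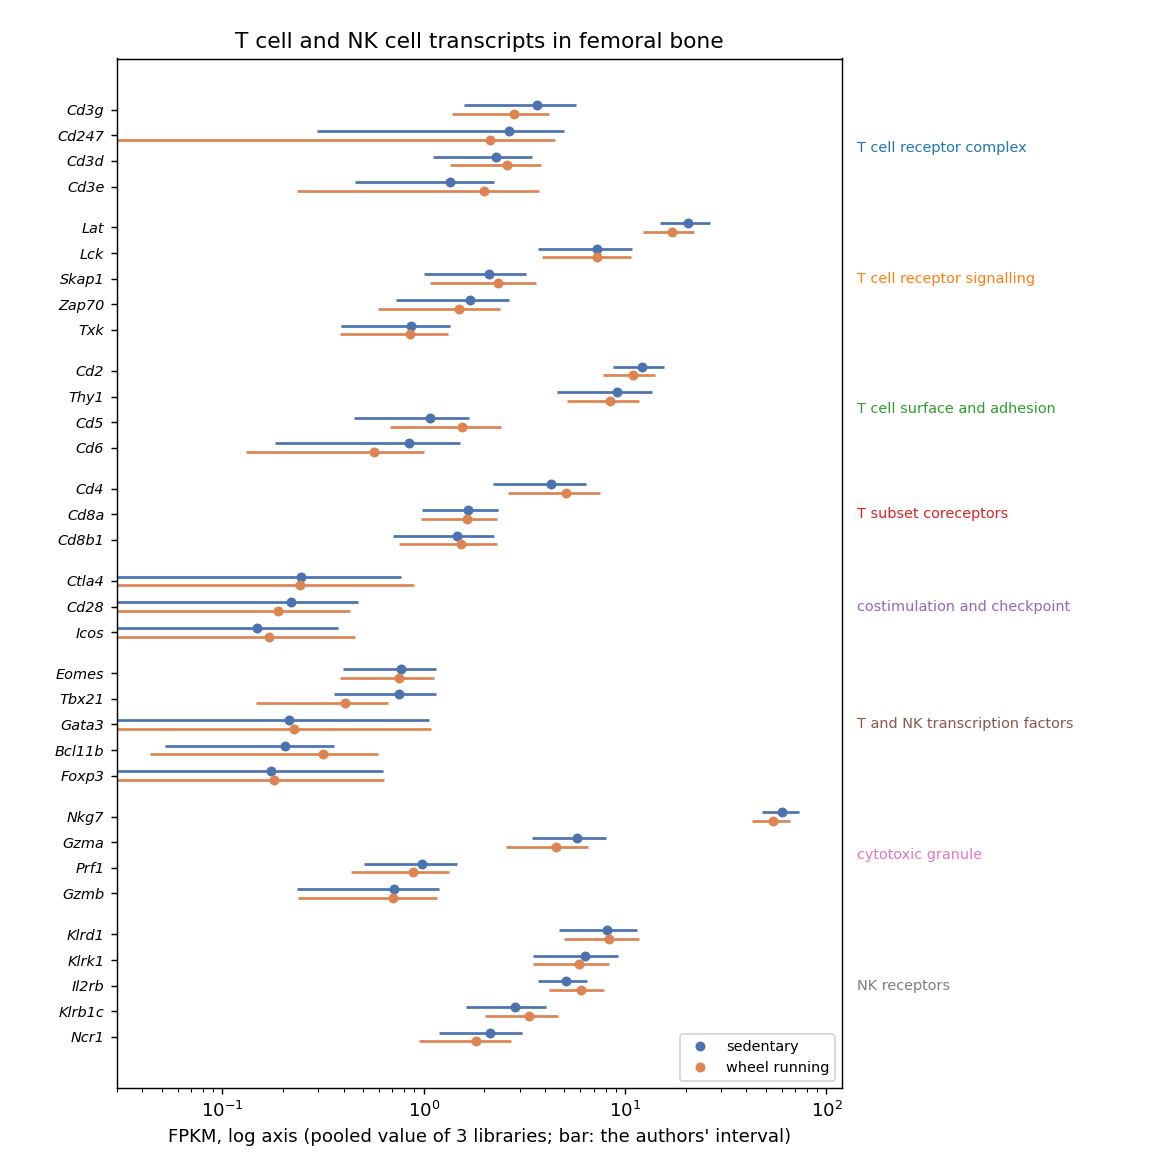
Authors' pooled FPKM (log axis) of the 33 genes in sedentary and running mice, grouped by role, with the authors' interval as bars; bars that reach the left edge have a lower bound of 0 or under the axis. The bars of the groups overlap for every gene, and Nkg7 stands highest in both groups.

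The levels kept nearly one order in both groups. Nkg7 stood first, followed by Lat and Cd2, and Icos stood last. Of the 33 genes, 12 had the same rank in both groups, and no gene moved by more than 4 places. Of the 32 pairs of neighbours in this order, 31 had overlapping intervals in each group, so that only the step from Nkg7 to Lat exceeded the intervals. Summed over the genes, the level was 168 FPKM in sedentary and 157 FPKM in running mice. Nkg7 alone made up 35.9% and 34.6% of these sums. Most levels were low: 30 of the 33 genes were under 10 FPKM in both groups and 12 were under 1 FPKM in both.

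Genes of the T cell receptor complex had folds of both signs, and none was called. Cd3e, whose chain is shared by both CD3 dimers of the complex, stood at 1.34 FPKM (interval 0.456 to 2.23) in sedentary and 1.99 FPKM (0.234 to 3.75) in running mice. Cd3d, which pairs with Cd3e, stood at 2.28 (1.11 to 3.44) and 2.58 FPKM (1.35 to 3.82). Cd3g, the other partner of Cd3e, stood at 3.64 (1.59 to 5.69) and 2.79 FPKM (1.39 to 4.20). Cd3e and Cd3d were listed higher and Cd3g lower in running mice, with wide overlap in each case. Cd247, which encodes the zeta chain, stood at 2.64 (0.296 to 4.99) and 2.14 FPKM (0 to 4.49). The log2 folds were 0.53, 0.18, -0.37 and -0.29, with p of 0.177, 0.514, 0.210 and 0.599 in the authors' deposited table. The summed level of these chains was 9.90 FPKM in sedentary and 9.51 FPKM in running mice.

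The 3 CD3 genes lie together on chromosome 9 (GRCm38, GENCODE vM21). Cd3g spans 44969572 to 44980431 on the minus strand and Cd3d 44981786 to 44987339 on the plus strand, so that 1354 bases separate these divergent genes. Cd3e spans 44998740 to 45009627 on the minus strand and overlaps the non-coding Gm48719 and Gm48720. The divergent neighbours differed in sign: the ratio of Cd3d to Cd3g FPKM was 0.626 in sedentary and 0.925 in running mice. Taken at the extremes of the bounds, that ratio could lie between 0.196 and 2.17 in sedentary and between 0.321 and 2.75 in running mice, so the difference is far inside the intervals. Cd247 on chromosome 1 overlaps Pou2f1 on the other strand, and the use of strand in counting is not described in the labels used here, so fragments of the pair may have been shared.

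Constant genes of the receptor chains, which are no members, were also uncalled. Trac, the alpha constant gene, stood at 4.80 and 4.83 FPKM, Trbc1 at 5.61 and 5.32 FPKM and Trbc2 at 5.79 and 5.77 FPKM in sedentary and running mice. Trbc1 and Trbc2 are close copies and could trade fragments. These genes, found in alpha-beta T cells, fit the label, with T cell transcripts present in both groups. Ptcra, the receptor chain of immature thymocytes, was listed at 0 in both.

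No gene that carries the receptor signal was called. Lck, the kinase that starts the cascade, stood at 7.28 (3.72 to 10.8) and 7.28 FPKM (3.86 to 10.7). Zap70, the kinase recruited to the phosphorylated chains, stood at 1.70 (0.731 to 2.66) and 1.49 FPKM (0.591 to 2.39). Lck thus showed nearly the same value in both groups, and the bounds at their extremes allow a ratio of 0.356 to 2.88. Lat, the membrane adaptor, stood at 20.6 (14.9 to 26.4) and 17.2 FPKM (12.3 to 22.0), a log2 fold of -0.26 with p = 0.0955 in the authors' deposited table. Lat is also expressed by megakaryocytes and mast cells, and its level was 2.83 times that of Lck in sedentary and 2.36 times in running mice. Skap1, an adaptor that links the receptor to integrins, stood at 2.12 and 2.34 FPKM. Txk, a Tec family kinase, stood at 0.867 and 0.853 FPKM. The median log2 fold of these 5 genes was -0.02, and it turned to 0.02 with the group totals set equal.

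**Figure D2:**
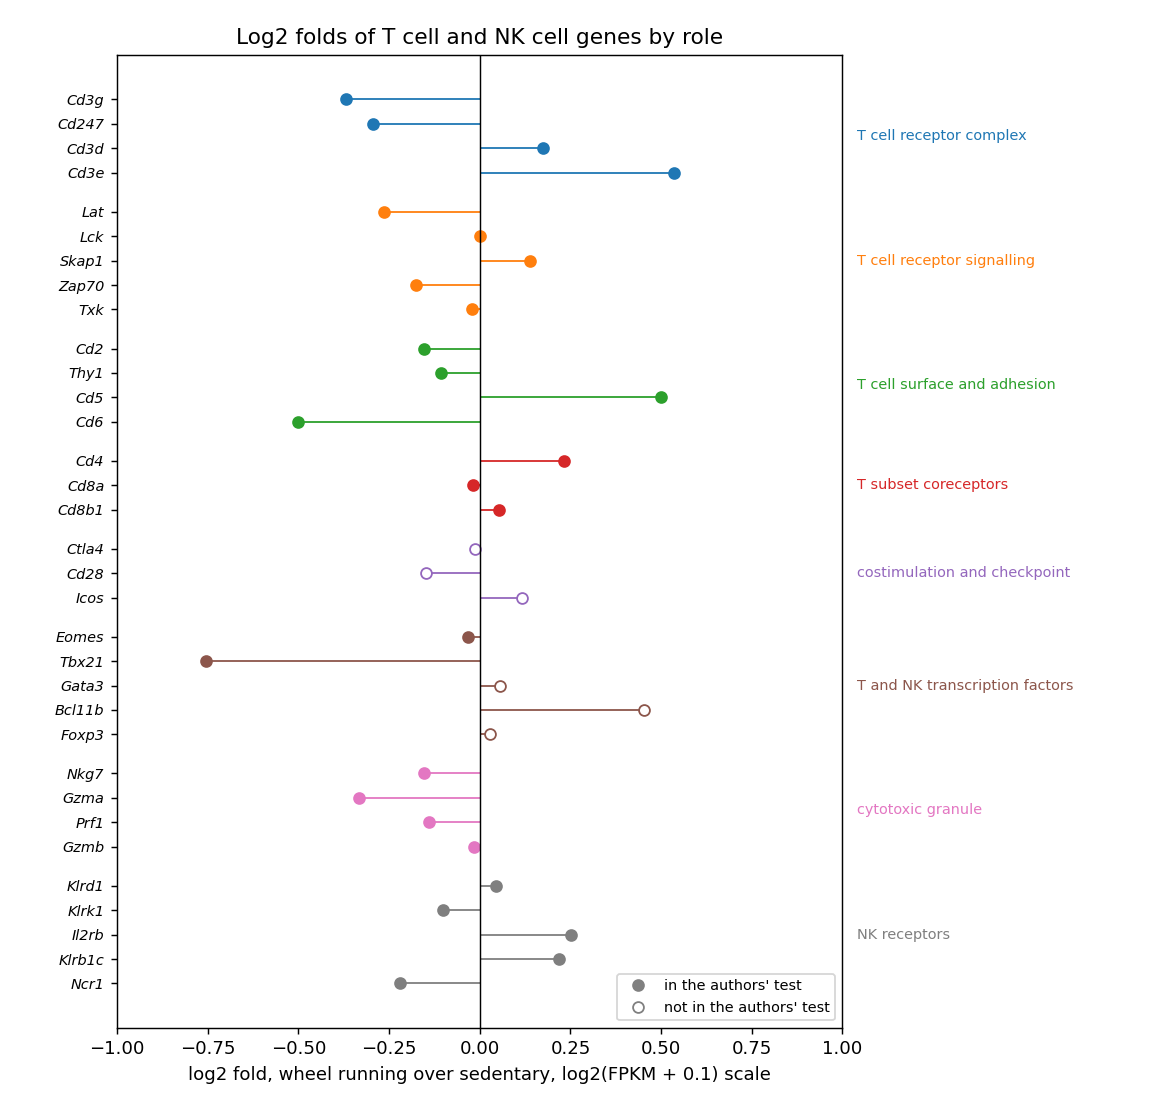
Log2 folds of the 33 genes by role (running over sedentary, log2(FPKM + 0.1) scale); open points are the 6 genes outside the authors' test. Each role but the cytotoxic granule genes holds folds on both sides of 0, and Tbx21 lies farthest from 0 at -0.76.

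Surface and adhesion molecules also had folds of both signs, none called. Cd2, an adhesion receptor not confined to T and NK cells, stood at 12.2 (8.69 to 15.7) and 10.9 FPKM (7.79 to 14.1). Which cells of the bone expressed Cd2 was not tested. Thy1, a surface glycoprotein of T cells that fibroblasts and neurons also carry, stood at 9.11 (4.60 to 13.6) and 8.45 FPKM (5.15 to 11.8). Both were listed slightly lower in running mice, well within their intervals. Cd5 and Cd6 encode related scavenger-type receptors that tune receptor signals, and lie 50.3 kb apart on chromosome 19 on the same strand with no coding gene between them. Cd5 stood at 1.07 (0.452 to 1.69) and 1.55 FPKM (0.678 to 2.43), and Cd6 at 0.848 (0.183 to 1.51) and 0.570 FPKM (0.131 to 1.01). Their log2 folds were of nearly equal size and opposite sign, 0.50 and -0.50, with p of 0.0932 and 0.151 in the authors' deposited table.

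No coreceptor of the T subsets was called. Cd4, the helper coreceptor that some macrophages and dendritic cells also express, stood at 4.30 (2.21 to 6.40) and 5.08 FPKM (2.63 to 7.52), with p = 0.344 in the authors' deposited table. Cd8a stood at 1.66 (0.978 to 2.34) and 1.63 FPKM (0.967 to 2.30), and Cd8b1, its partner in the CD8 heterodimer of killer T cells, at 1.47 (0.706 to 2.23) and 1.53 FPKM (0.751 to 2.30). The 2 chains were thus at like levels, with Cd8a at 1.13 and 1.07 times Cd8b1. The FPKM ratio of Cd4 to Cd8a was 2.60 in sedentary and 3.11 in running mice. At the extremes of the bounds it could be 0.947 to 6.54 in sedentary and 1.14 to 7.77 in running mice, and no difference was detectable at this depth. The sign of the Cd8a fold (-0.02) turned positive with the group totals set equal.

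Costimulatory and regulatory genes were close to the limit of detection. Cd28, the main costimulatory receptor, stood at 0.220 (0 to 0.470) and 0.189 FPKM (0 to 0.431). Its relative Icos stood at 0.149 and 0.170 FPKM, and Ctla4, the inhibitory receptor that shares the ligands of Cd28, at 0.247 and 0.244 FPKM. These 3 genes are neighbours on chromosome 1, all with a lower bound of 0 in both groups and with about 19 to 41 fragments per group. Foxp3 stood at 0.175 (0 to 0.628) and 0.181 FPKM (0 to 0.636). It overlaps 2 other coding genes, Ppp1r3f and Ccdc22, and its locus in the deposited tables spans these neighbours. None of these 4 genes was in the authors' test, so a difference in Foxp3 or in the other 3 could not be assessed.

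Transcription factors held the largest fold of the tested members. Tbx21 encodes T-bet, which directs type 1 helper T cells and NK cell maturation. It stood at 0.754 FPKM (0.358 to 1.15) in sedentary and 0.406 FPKM (0.147 to 0.664) in running mice, about 76 and 43 fragments. The log2 fold was -0.76. In the authors' deposited table its p was 0.01355 and its q 0.499, so it was not called. Eomes, the related T-box factor of NK and memory killer T cells, stood at 0.772 (0.395 to 1.15) and 0.752 FPKM (0.384 to 1.12) and overlaps the antisense Gm33460. It had a log2 fold of -0.03 that turned positive with equal totals. The ratio of Eomes to Tbx21 was 1.02 in sedentary and 1.85 in running mice, with bounds of 0.344 to 3.20 and 0.578 to 7.59. Bcl11b, the factor that commits progenitors to the T lineage, stood at 0.205 (0.0522 to 0.357) and 0.317 FPKM (0.0435 to 0.590). Gata3, the factor of type 2 helper T cells and group 2 innate lymphoid cells, stood at 0.213 (0 to 1.06) and 0.226 FPKM (0 to 1.09), and overlaps 2 other annotated coding genes.

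**Figure D3:**
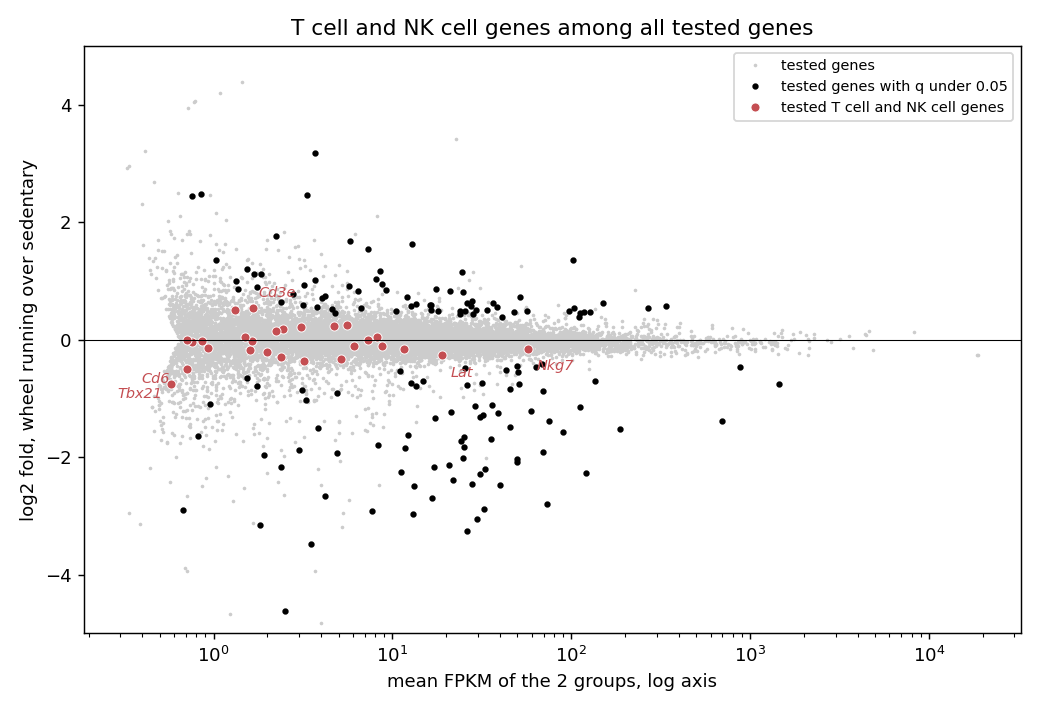
Log2 fold against mean FPKM (log axis) of the genes in the authors' test; 7 genes beyond 5 in size are not drawn. The 27 tested T and NK genes lie inside the cloud of uncalled genes, and none of them is among the called genes (black).

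All 4 cytotoxic granule genes were listed lower in running mice as deposited, none of them called, and Gzmb turned to the other side with the group totals set equal. Nkg7, a granule membrane protein needed for efficient degranulation, stood at 60.2 (47.6 to 72.9) and 54.2 FPKM (42.7 to 65.7), with p = 0.207 in the authors' deposited table. Gzma, a tryptase-like granzyme, stood at 5.76 (3.44 to 8.08) and 4.55 FPKM (2.56 to 6.55), with p = 0.171 in the same deposited table of the authors. Prf1, the pore-forming perforin, stood at 0.985 (0.506 to 1.46) and 0.884 FPKM (0.437 to 1.33). Gzmb, the aspartate-cleaving granzyme, stood at 0.710 (0.235 to 1.19) and 0.702 FPKM (0.239 to 1.17). The median log2 fold was -0.15.

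Levels within the granule group were unequal. Per length, Gzma stood 8.12 times above Gzmb in sedentary and 6.49 times in running mice. Nkg7 stood 10.5 and 11.9 times above Gzma. It stood 44.8 and 27.2 times above Cd3e, and the bounds of those last ratios, 21.3 to 160 and 11.4 to 280, lie well above equality. The ratios compare transcript levels in whole tissue, and which cells expressed Nkg7 was not tested. Nkg7 also carried the tightest estimate of the set: at the extremes of its bounds, the running level lies between 0.586 and 1.38 times the sedentary level.

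Receptors of NK cells had folds of both signs, none called. Il2rb, the receptor chain shared by interleukins 2 and 15, stood at 5.07 (3.68 to 6.45) and 6.04 FPKM (4.20 to 7.89), with p = 0.134 in the authors' deposited table. Klrb1c, which encodes the NK1.1 antigen of C57BL/6 mice, stood at 2.84 (1.63 to 4.05) and 3.32 FPKM (2.01 to 4.63), and overlaps the annotated gene Gm44511 on its own strand. These genes were listed higher in running mice, within their intervals. Klrk1, the activating receptor NKG2D, stood at 6.34 (3.50 to 9.19) and 5.90 FPKM (3.48 to 8.32). Klrd1, the CD94 chain of the NKG2 heterodimers, stood at 8.11 (4.72 to 11.5) and 8.37 FPKM (4.98 to 11.8). Ncr1, the natural cytotoxicity receptor NKp46, stood at 2.14 (1.19 to 3.09) and 1.83 FPKM (0.953 to 2.70). Klrd1 and Klrk1 are neighbours 11.5 kb apart on chromosome 6, and their level ratio was 1.28 in sedentary and 1.42 in running mice. Over the 5 NK receptors the median log2 fold was 0.05.

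Merged into broader groups and set side by side, the roles had medians between -0.13 and 0.03. The 4 surface and adhesion genes, left as a group of their own, had the lowest of these, -0.13, and 1 was positive. The 9 genes of the receptor complex and its signalling had a median log2 fold of -0.02, and 4 were positive. The 11 T subset genes (coreceptors, costimulation and transcription factors) had a median of 0.03, and 6 were positive. The 9 cytotoxic granule and NK receptor genes had a median of -0.10, and 3 were positive. Taken apart, the granule genes had a median of -0.15, the lowest of any single role, and the NK receptors one of 0.05. The T subset coreceptors, taken alone, also had a median of 0.05. No difference between these groups was tested. In the FPKM range of 0.5 to 10 (mean of the groups), which holds 24 of the 27 tested members, the authors called 50 of 7597 genes (0.658%), with log2 folds of at least 0.46 in size.

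Other genes of T and NK cells, in 5 lists, showed no call either. Of 98 genes found in the tables, 76 were in the authors' test. Among those at an unadjusted p under 0.05 in the authors' deposited table were Lcp2, Rag1 and Trgc1, listed lower, and S1pr1, listed higher in running mice. The list medians lay between -0.07 for receptor constant genes and 0.04 for thymocyte and early T genes, among which Rag1 and Rag2 also mark B cell precursors. Among the 26 other T cell genes the median was -0.05. Among the most expressed were Klf2 at 42.2 and 45.7 FPKM and Lcp2 at 36.1 and 29.3 FPKM. Among 35 other NK and cytotoxic genes the median was -0.01.

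List medians of markers of other cells ranged from -0.41 to 0.32, and their part in the values above was not tested. By list, the log2 fold had a median of -0.12 for B lineage genes, -0.41 for plasma cell, -0.14 for neutrophil, 0.09 for monocyte and macrophage, -0.15 for dendritic, -0.30 for mast cell, basophil and eosinophil, 0.03 for group 2 innate lymphoid, 0.04 for erythroid, 0.23 for bone and stroma, 0.32 for muscle and 0.15 for endothelial genes. In the mast cell, basophil and eosinophil list, 6 of the 8 genes were listed lower. The eosinophil genes Prg2 and Epx were listed higher, with log2 folds of 0.11 and 0.16, and neither was called. Called members of the lists of other cells were Jchain, Ccr2, Mcpt8 and Prss34 on the lower side and Sost, Lepr, Myh1, Myh2 and Tcap on the higher side.

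**Figure D4:**
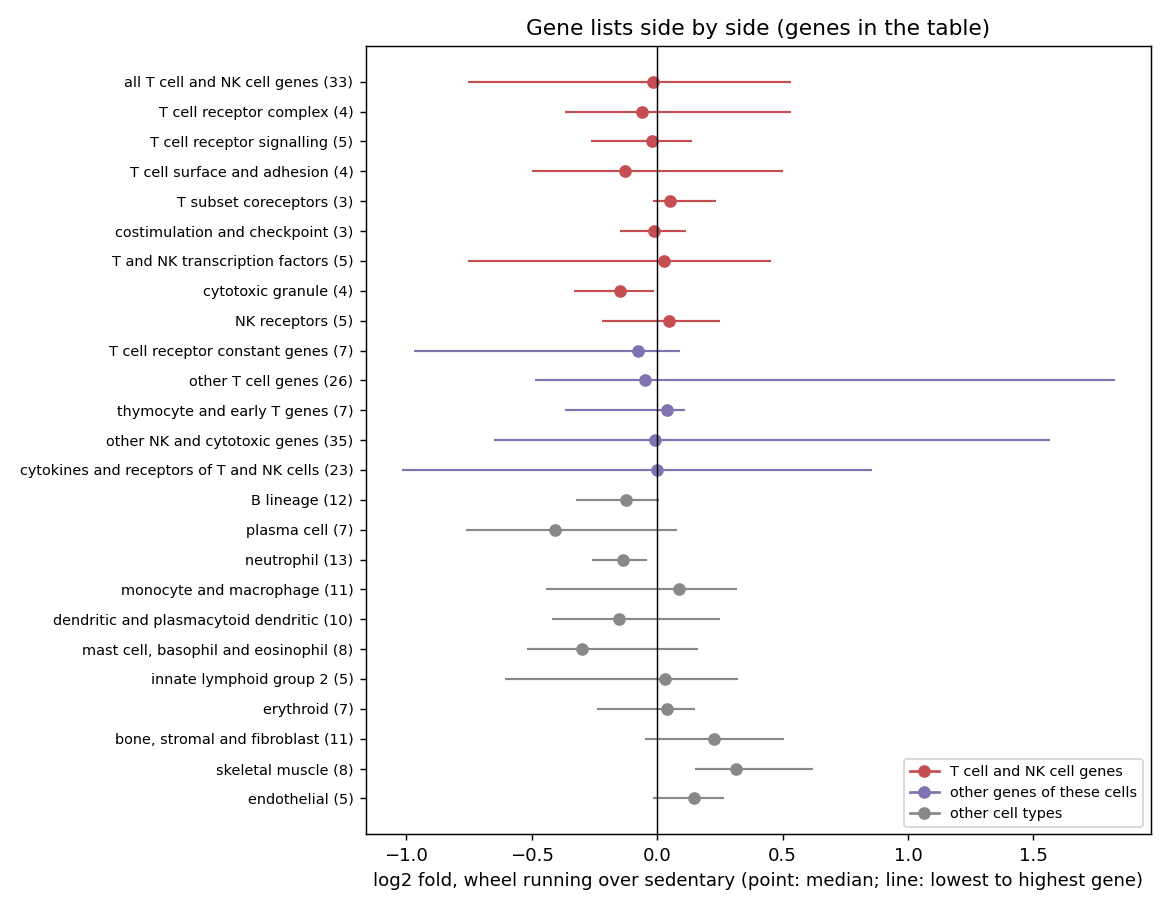
Median log2 fold (point) and range (line) of each gene list, with the number of its genes in the table; wheel running over sedentary. The 33 T and NK genes have a median of -0.02, plasma cell genes lie lowest at -0.41 and muscle genes highest at 0.32.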

How the data were processed

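Polyadenylated RNA of 6 femoral bone libraries was sequenced from directional libraries, per the labels' protocols. Build GRCm38, Cufflinks 2.2.1, HISAT2 2.2.1, Trimmomatic 0.39 and SAMtools 1.10 appear in the submitters' processing notes, which give no settings. The authors deposited 1 FPKM per group with an interval, and a log2 fold, a test statistic (a score), a p-value and a q-value per gene, in the layout of Cuffdiff per the file headers. No column holds a single library, so a test between mice could not be run and the authors' q was used as the call in place of a planned fit on single libraries. The design text counts 3 mice per group.

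Log2 folds, medians, ratios and counts were computed with Python 3.11.15 and pandas 2.3.3 and the code was tested on simulated data. Gene positions are from GENCODE vM21, matched by Ensembl ID. Depth was estimated from the lowest FPKM steps of single-exon genes longer than 1500 bp, assuming that the pooled value averages 3 libraries. The T and NK genes, the lists and the motifs were chosen with earlier results of these data known. All 33 genes are named, and of other lists the called genes or up to 3 of the most expressed; Trac, Trbc1, Trbc2 and Ptcra were named as checks of the label, and genes at an unadjusted p under 0.05 were named after their values were seen. Of the listed symbols, 3 were matched through RefSeq synonyms, and Cd244 had no match of its own beside Cd244a. Single values of some listed genes are not reported here. Alternatives were other q thresholds, pseudocounts, scalings and filters.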

Additional observations from a re-analysis of the deposited data

How the results depend on the processing

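No paired analysis was possible because each group has only a pooled column without replicate numbers, and no replicate could be left out. The count of 0 called T and NK genes was the same with q under 0.01 or 0.1 and with q recomputed over genes with FPKM of at least 1. The count of 146 over all genes was 108, 190 and 150 there. Settings chosen after seeing the data gave 876 genes in all and 1 T or NK gene at an unadjusted p under 0.05, and 89 genes in all and 0 T or NK genes with intervals apart. With both groups at the same total FPKM, log2 folds were 0.04 higher, which turned the median of the 33 genes from -0.018 to 0.018 and that of the receptor complex and signalling genes from -0.022 to 0.017. The median of the T subset genes, 0.027, was -0.018 over the 5 members that the authors tested. Of 132 alternative log2 folds of single genes, 5 changed sign (Cd8a, Ctla4, Eomes, Gzmb and Txk), all under 0.04 in size. Cd28, Icos and Ctla4, at 19 to 41 fragments per group, had intervals that reach 0, as had Cd247 in running mice at about 277 fragments, whereas those of Gzmb, at about 38 and 40, did not; the cause was not tested.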

Other observations

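Among genes outside the lists, Klra2, a Ly49 family receptor gene in the NK gene complex on chromosome 6, was called lower. It was singled out after its values were seen, and which cells of the bone expressed it was not tested. Klra2 stood at 13.1 FPKM (9.997 to 16.2) in sedentary and 9.05 FPKM (6.72 to 11.4) in running mice, with q = 0.0283 in the authors' deposited table. The intervals of the groups overlapped. The listed Ly49 genes were lower in level and none was called: Klra7 stood at 1.97 and 1.60 FPKM, Klra1 at 1.52 and 1.75 FPKM and Klra8 at 1.43 and 1.80 FPKM. The listed Ly49 genes are close copies, so their single values are uncertain.

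Constant genes of the gamma chain, carried by gamma-delta T cells, were listed lower in running mice. Trgc1 stood at 1.27 FPKM (0.345 to 2.19) and 0.597 FPKM (0.0523 to 1.14), with p = 0.0293 and q = 0.721 in the authors' deposited table. Trgc2 stood at 0.954 and 0.461 FPKM, with p = 0.0554 in the authors' deposited table, and Trgc4, outside the authors' test, at 0.570 and 0.416 FPKM. The gamma constant genes are close copies, and the delta constant gene Trdc stood at 0.416 and 0.449 FPKM. Il15, Il15ra and Il18, which support NK cells, stood at 5.85 and 8.17, 8.71 and 10.8, and 10.2 and 12.9 FPKM, none of them called.

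Of 144 receptor variable segments in the tables, 9 were in the authors' test and none was called. By chain, their summed level in sedentary and running mice was 5.30 and 4.44 FPKM for the 110 alpha segments, 13.9 and 9.14 FPKM for the 22 beta segments, 1.30 and 1.36 FPKM for the 7 gamma segments and 1.69 and 2.26 FPKM for the 5 delta segments. The tested segments were 7 beta and 2 delta segments.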
